A study of Mus musculus with 40 samples.

Results

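The 39 genes described here encode the coagulation and complement proteins of blood plasma, with the inhibitors, cofactors and carrier proteins that circulate beside them. They were chosen by name, and each was read from 1 Affymetrix Mouse430_2 probe set, the one with the highest mean signal over the 20 liver arrays. Of the 39 genes, 38 had a probe set in the annotation used, out of 18193 genes with one on the array, and C3 was not analysed here. RNA came from both organs, liver and kidney, of each of 20 male B6C3F1/Crl mice, offspring of a C57BL/6 male and a C3H/He female. The PB group of 10 mice drank water with 0.05% (w/v) phenobarbital for 28 days, and the control group of 10 mice went without it. The animals were 29 to 32 days old on arrival and had 5 days to acclimatise before dosing. Liver was taken as the organ that phenobarbital acts on and kidney as one that it does not target. The values are MAS5 signals on a linear scale, 1 array per organ and animal, so each of the groups PB liver, control liver, PB kidney and control kidney holds 10 arrays.

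Coagulation is a chain of protease zymogens that ends when thrombin turns soluble fibrinogen into fibrin, and it is held in check by serpins and by the protein C pathway. Complement is a second chain, started by antibody, by lectins that bind microbial sugars or on surfaces, and it ends when C5 to C9 assemble into a pore in the target membrane. Hepatocytes secrete most of these proteins, and many of their genes are known targets of the liver-enriched factors HNF1, HNF4 and C/EBP. Phenobarbital activates the nuclear receptor CAR in hepatocytes, and Cyp2b10, a cytochrome P450, is its classical target.

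Cyp2b10 had signals of 9731 to 12774 in PB livers, against 15.7 to 49.5 in control livers, so the liver arrays followed their treatment labels. Hepatocyte markers (7 genes) summed to 99030 to 140100 in PB livers and to 103600 to 139900 in control livers. Some arrays held transcripts of the other organ. Apoa1, an apolipoprotein made by hepatocytes, was at 63.3 to 177 in 5 kidneys (1 PB kidney, animal 19, and 4 control kidneys, animals 1, 3, 9 and 10), against 1.0 to 37.2 in the other 15. Albumin (Alb) was at 416 to 1030 in those 5 kidneys, against 61.2 to 195 in the other 15. The liver of control animal 5 had a signal of 123 for Umod, a kidney tubule gene, against 5.3 to 37.3 in the other 19 livers. Kap, also a kidney tubule gene, was at 1230 in that liver. It was at 234 in the liver of PB animal 17 and at 221.5 in that of control animal 3, and both livers were kept in all these counts. Counts of calls are therefore also given without the 5 kidneys and the liver of control animal 5, a choice made after seeing the data. Below, the arrays that held transcripts of the other organ are these.

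In liver, 10 of the 38 members fell with PB, 3 rose and 25 were not called. Those that fell were the complement pore genes C8a, C8b and C9, the fibrinogen chains Fga and Fgb, and F11, F5, Mbl1, Cfi and Ahsg. F10, Serpind1 and Masp1 rose, but for Masp1 a second probe set fell. A call is a limma p, adjusted by Benjamini-Hochberg over all 9975 genes with a mean signal of at least 50 in 1 of the liver groups, below 0.05. By the same rule 8.51% of all genes tested fell and 6.94% rose. All changes were small, between -0.37 and 0.27 on the log2 scale. The median over the members was -0.11, against -0.02 over all genes tested, and the fitted difference was below 0 for 29 members and above 0 for 9. Over all 9975 genes tested it was below 0 for 5335 and above 0 for 4640. No member had a ratio of at least 1.5 with a limma p of at most 0.001, the cut-offs of the study's methods, where the p is that of a t-test. Of all genes, 2.66% passed. For no member were the 10 PB and the 10 control livers fully apart, against 1.77% of all genes. In bulk tissue, fewer cells of a type and less RNA per cell cannot be told apart.

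**Figure D1:**
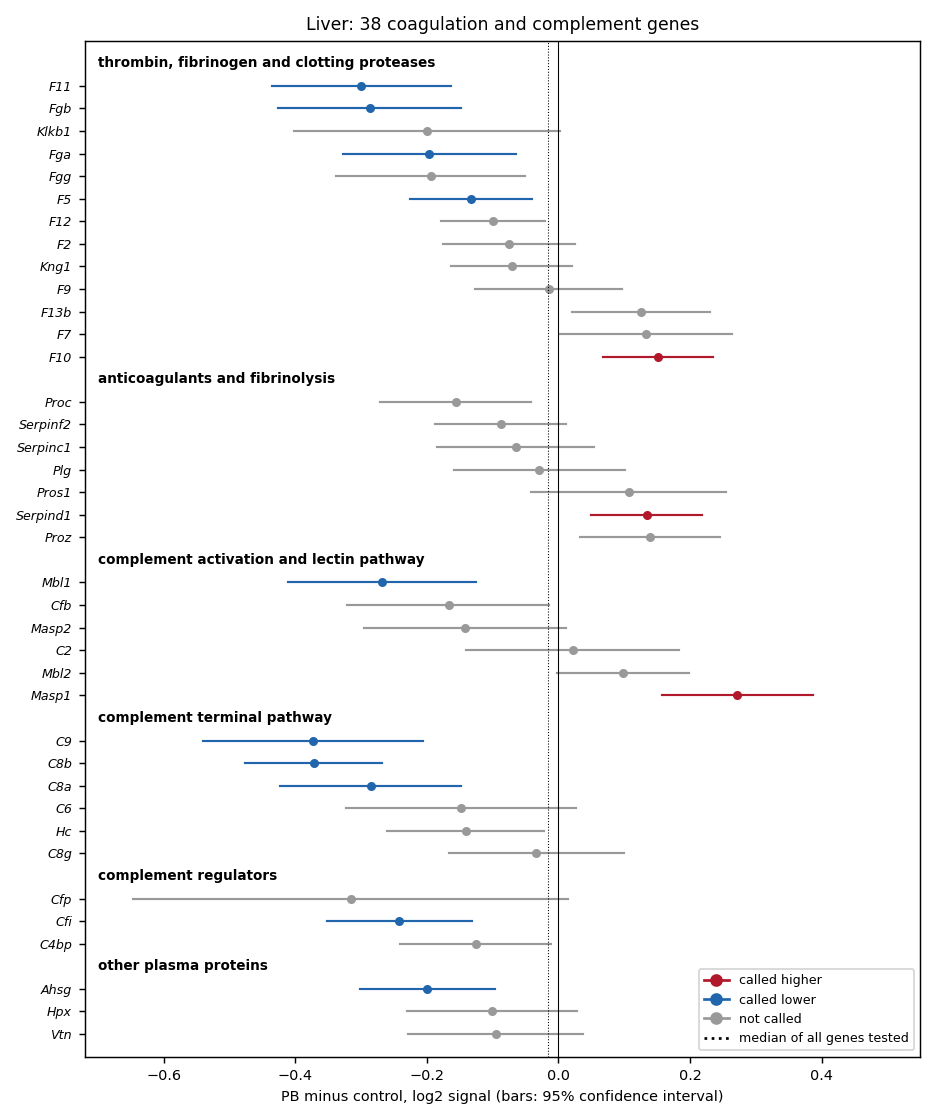
Fitted PB minus control difference in liver on the log2 scale (x axis) for each of the 38 measured genes (y axis), grouped by role, with 95% confidence intervals. The 10 genes called lower and the 3 called higher lie between -0.37 and 0.27, and the dotted line marks the median of all genes tested, -0.02.

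Without the liver of control animal 5, the 13 calls were kept, and Fgg and Hc were also called lower (3 higher and 12 lower), while 29 differences were still below 0 and 9 above. With all 40 arrays in 1 fit, only C8a and Cfi kept the call: there the spread of the kidney arrays enters, where most members are near background, and the standard error of Fgb was 0.67 in place of 0.07.

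Of the 6 terminal complement genes measured, 3 fell, and all 6 differences were below 0. Of all 9975 genes tested, 8.51% fell and 5335 differences were below 0. C8b encodes the beta chain of complement C8, which anchors the growing pore on C5b to C7. C8b signals ran from 3339 to 4321 in PB livers (median 3757), against 4151 to 5332 in control livers (median 4955). The PB livers lay below every control liver in 9 of 10 animals, so the groups overlapped only at the edge. C8b fell by 0.37 on the log2 scale (SE 0.05, adjusted p = 1.61e-05). C8a encodes the alpha chain that enters the membrane. C8a signals ran from 7212 to 10220 in PB livers (median 9311), against 9530 to 11865 in control livers (median 10947). All 10 PB livers were below the control median and 5 were below every control liver. C8a fell by 0.29 (SE 0.07, adjusted p = 0.00461). C9 is the subunit that polymerises into the wall of the pore. C9 signals ran from 9184 to 14308 in PB livers (median 11836), against 11857 to 17121 in control livers (median 14887). The groups overlapped, with 5 PB livers below every control liver, and C9 fell by 0.37 (SE 0.08, adjusted p = 0.00261). C8g, the gamma chain of C8 and a lipocalin, averaged 8127 ± 719 in PB livers and 8339 ± 942 in control livers (SD, n = 10 each; log2 difference -0.03, adjusted p = 0.769). Hc, which encodes C5, and C6 had differences of -0.14 (adjusted p = 0.0994) and -0.15 (adjusted p = 0.248), not called.

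Promoter windows are shown for the 3 terminal genes that fell, since C8a and C8b lie on the same chromosome and shared both the direction and a motif. RefSeq windows of 300 bases (250 before and 50 after a start, GRCm38.p6) were held for 31 members, 32 windows in all. Capitals mark the HNF1 half-site GTTAAT or the C/EBP motif TTGCNNAA, on either strand. The windows are chr4:104876349-104876648, minus strand, for C8a, chr4:104766067-104766366, plus strand, for C8b and chr15:6445096-6445395, plus strand, for C9.
C8a: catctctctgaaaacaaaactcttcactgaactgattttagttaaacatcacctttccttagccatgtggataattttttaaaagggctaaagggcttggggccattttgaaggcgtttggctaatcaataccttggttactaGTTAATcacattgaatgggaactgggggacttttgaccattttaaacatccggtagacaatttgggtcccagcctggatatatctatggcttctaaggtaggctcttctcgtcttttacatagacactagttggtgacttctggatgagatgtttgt
C8b: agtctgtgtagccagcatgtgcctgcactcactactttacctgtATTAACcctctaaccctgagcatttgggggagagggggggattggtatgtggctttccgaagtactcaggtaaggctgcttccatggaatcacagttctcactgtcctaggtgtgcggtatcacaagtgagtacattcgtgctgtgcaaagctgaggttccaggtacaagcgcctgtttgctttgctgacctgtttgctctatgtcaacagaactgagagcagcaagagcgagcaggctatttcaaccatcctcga
C9: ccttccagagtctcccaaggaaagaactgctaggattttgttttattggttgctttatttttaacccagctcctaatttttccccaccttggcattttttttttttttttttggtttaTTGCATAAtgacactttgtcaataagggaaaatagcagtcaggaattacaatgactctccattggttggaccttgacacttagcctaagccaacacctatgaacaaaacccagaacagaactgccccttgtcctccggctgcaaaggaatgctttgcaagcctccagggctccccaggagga
The half-site begins at position -107 in C8a and at -206 in C8b, counted from the start base, and C9 holds the C/EBP motif alone. GTTAAT was in 11 of the 32 member windows (34.4%), against 7.1% of 32851 RefSeq windows of the same length. Besides C8a, C8b, Fga and Fgb, it was in those of C4bp, Cfp, F13b, F2, Hc, Proz and Vtn, none of them called in liver. The windows of F11, F5, Mbl1 and Ahsg, which fell, lacked it, as did that of C9. Those of F10 and Serpind1, which rose, lacked it too. No window was held for Cfi, which fell, or for Masp1. TTGCNNAA was in 9 member windows (28.1%), against 10.8% of all windows. The letters AGGTCA, a nuclear receptor half-site not set in capitals, were in 13 member windows (40.6%), against 16.3% of all, and the HNF4 letters CAAAGTCCA were in 0, against 0.475% of all. A match in letters is a description of the window and does not show that a factor binds there.

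Of the activation and lectin genes, Mbl1 fell and Masp1 rose among 6 measured. Mbl1 encodes mannose-binding lectin A, which binds sugars on microbes and starts the lectin pathway. Mbl1 signals were 2087 to 2938 in PB livers (median 2417) and 2610 to 3407 in control livers (median 3146). The ranges overlapped, with 6 PB livers below every control liver, and Mbl1 fell by 0.27 (SE 0.07, adjusted p = 0.00996). Its relative Mbl2 had a difference of 0.10 (adjusted p = 0.178). Masp1 encodes a protease that circulates with these lectins, and by alternative splicing also MASP-3 and MAp44. Masp1 signals were 1507 to 1973 in PB livers (median 1865) and 1294 to 1636 in control livers (median 1462). All 10 PB livers were above the control median, 7 of them above every control liver, and this probe set rose by 0.27 (SE 0.06, adjusted p = 0.00144). Cfb, the protease of the alternative pathway, C2, its counterpart in the classical pathway, and Masp2, which cleaves C4 and C2, had differences of -0.17, 0.02 and -0.14, none called. Among the 3 regulators, Cfi encodes factor I, which cleaves C3b and C4b. Cfi signals were 8008 to 10726 in PB livers (median 9580) and 9677 to 12554 in control livers (median 11129). No PB liver reached the control median, 6 were below every control liver, and Cfi fell by 0.24 (SE 0.05, adjusted p = 0.00304). C4bp, the cofactor of factor I for C4b, differed by -0.13 (adjusted p = 0.128) and Cfp, which encodes properdin, by -0.32 at signals of 88.2 ± 27.0 in PB livers and 107 ± 21.4 in control livers (adjusted p = 0.189).

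Fibrinogen is made of an alpha, a beta and a gamma chain from a cluster of genes on chromosome 3. The beta chain gene Fgb had signals of 13547 to 20479 in PB livers (median 18361), against 19607 to 25576 in control livers (median 21881). In 8 of 10 animals the PB liver was below every control liver, and Fgb fell by 0.29 (SE 0.07, adjusted p = 0.00496). The alpha chain gene Fga had signals of 15521 to 21638 in PB livers (median 19421), against 19494 to 25723 in control livers (median 21510). The overlap was wider here, with 5 PB livers below every control liver, and Fga fell by 0.20 (SE 0.06, adjusted p = 0.0387). Leaving out single livers ended the Fga call in 10 of 20 cases. The gamma chain gene Fgg had signals of 12594 to 18263 in PB livers (median 16198), against 15785 to 21388 in control livers (median 17553). Its difference was of the size of that of Fga, -0.19 (SE 0.07), and missed the threshold at an adjusted p of 0.0598. The windows of Fga and Fgb are shown because each holds both motifs, at chr3:83025903-83026202, plus strand, for Fga and chr3:83049814-83050113, minus strand, for Fgb.
Fga: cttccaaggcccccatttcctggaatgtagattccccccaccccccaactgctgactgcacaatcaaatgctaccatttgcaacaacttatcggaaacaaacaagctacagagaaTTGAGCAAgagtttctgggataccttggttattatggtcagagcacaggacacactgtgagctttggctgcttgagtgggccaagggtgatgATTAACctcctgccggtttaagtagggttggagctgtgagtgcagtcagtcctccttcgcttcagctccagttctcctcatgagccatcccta
Fgb: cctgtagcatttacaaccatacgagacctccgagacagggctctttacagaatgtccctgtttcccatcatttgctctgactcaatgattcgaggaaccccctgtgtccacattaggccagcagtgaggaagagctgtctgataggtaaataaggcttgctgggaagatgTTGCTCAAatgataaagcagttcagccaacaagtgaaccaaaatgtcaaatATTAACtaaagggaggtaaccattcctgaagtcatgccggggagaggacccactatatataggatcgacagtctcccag
The HNF1 half-site begins at position -43 in Fga and at -29 in Fgb. The Fgg window holds neither of these motifs but holds AGGTCA.

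Among the clotting proteases and cofactors, F11 and F5 fell and F10 rose. F11 encodes factor XI, which thrombin activates to keep the intrinsic branch running. F11 signals were 1170 to 1608 in PB livers (median 1338) and 1440 to 1918 in control livers (median 1716). In 7 animals the PB liver was below every control liver, and F11 fell by 0.30 (SE 0.07, adjusted p = 0.00285). F5 encodes factor V, the cofactor that factor Xa needs to make thrombin. F5 signals were 2668 to 3058 in PB livers (median 2958) and 2741 to 3613 in control livers (median 3235). The PB range lay almost wholly inside the control range, though all 10 PB livers were below the control median. F5 fell by 0.13 (SE 0.05, adjusted p = 0.0479), and this call was lost in 16 of the 20 fits that left out 1 liver. F10 encodes factor X, the protease where the intrinsic and extrinsic branches meet. F10 signals were 4855 to 5748 in PB livers (median 5524) and 4572 to 5445 in control livers (median 4888). In 6 animals the PB liver was above every control liver, and F10 rose by 0.15 (SE 0.04, adjusted p = 0.0133). With each array centred on its median, where the median of all genes shifts to -0.04, F10, Serpind1 and F5 were not called, which left 1 member higher and 9 lower, and with quantile normalization 2 were higher and 18 lower.

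The other clotting members were not called. F2, which encodes prothrombin, averaged 11820 ± 788 in PB livers and 12450 ± 932 in control livers (log2 difference -0.08, adjusted p = 0.317). F9, the gene of haemophilia B, had the difference nearest to 0 of this role, -0.02 (adjusted p = 0.88). F7, which starts the extrinsic branch, and F13b, the carrier subunit of the fibrin crosslinking factor XIII, had differences of 0.13 each (adjusted p = 0.163 and 0.0961). The contact system genes F12, Klkb1 (plasma prekallikrein) and Kng1 (kininogen) had differences of -0.10, -0.20 and -0.07 (adjusted p = 0.0774, 0.171 and 0.299).

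Of the 7 anticoagulant and fibrinolysis genes, 1 rose and none fell. Serpind1 encodes heparin cofactor II, a serpin that inhibits thrombin. Serpind1 signals were 4859 to 5934 in PB livers (median 5548) and 4636 to 5355 in control livers (median 5041). The groups overlapped, 7 PB livers were above every control liver, and Serpind1 rose by 0.13 (SE 0.04, adjusted p = 0.028). Proc, the zymogen of activated protein C, and Proz, protein Z, a cofactor in the inhibition of factor Xa, lay just outside the threshold with opposite signs, -0.16 (adjusted p = 0.059) and 0.14 (adjusted p = 0.0721). Serpinc1 (antithrombin), Serpinf2 (antiplasmin), Plg (plasminogen) and Pros1 (protein S) had differences of -0.07, -0.09, -0.03 and 0.11, with adjusted p from 0.226 to 0.8. Of the 3 other plasma proteins, Ahsg fell, which encodes fetuin-A, a carrier of calcium phosphate. Ahsg signals were 11983 to 15811 in PB livers (median 14263) and 14781 to 18175 in control livers (median 16605). In 8 animals the PB liver was below every control liver, and Ahsg fell by 0.20 (SE 0.05, adjusted p = 0.00775). The heme carrier Hpx and the adhesion protein gene Vtn each had a difference of -0.10 (adjusted p = 0.294 and 0.344).

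**Figure D2:**
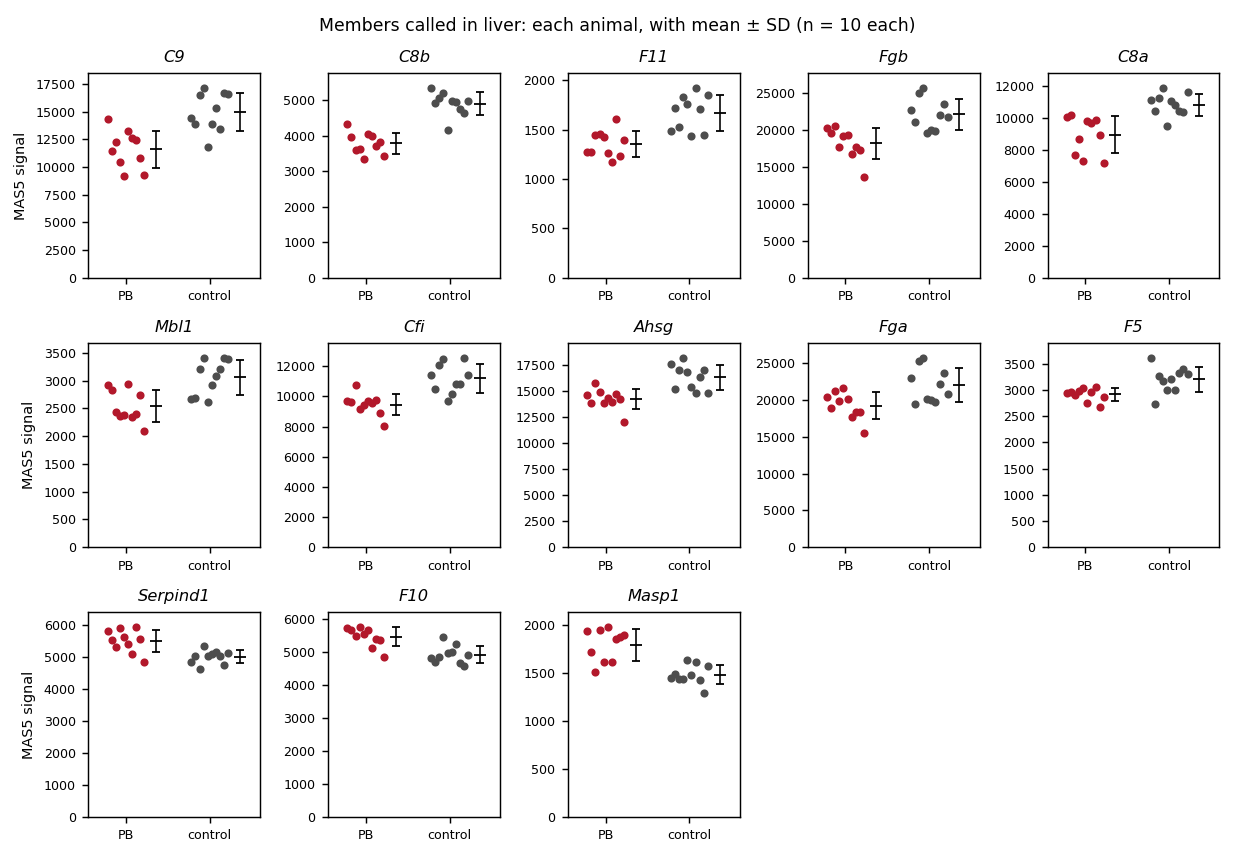
MAS5 signal (y axis, linear, from 0) of the 13 members called in liver, with 1 point per animal for PB and control livers and the mean ± SD beside each group (n = 10 each). The groups overlap in every panel; for C8b, 9 of 10 PB livers lie below all control livers.

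In liver the members varied less between animals of a group than genes in general. Their median coefficient of variation was 9.14% in PB livers and 9.0% in control livers, against 13.7% and 15.3% over all genes at 50 or more in the same groups. In kidney it was 12.0% in PB and 12.7% in control kidneys over the members at 50 or more, against 10.9% and 10.7% over all such genes. Member means reached 19210 in PB livers and 22080 in control livers, and genes matched for signal level were not compared. Whether the lower variation in liver follows from the signal level was not tested. Single animals stood a little off for many members at once. In the PB liver of animal 20, 30 of 38 members were below their group mean, with a median deviation of -0.16 on the log2 scale. In the control liver of animal 4, 32 of 38 were above theirs, with a median of 0.14. Without either of these livers in turn, the 10 calls other than F5, Fga and Serpind1 were kept, as in every other fit that left out 1 liver.

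Of the 9 members with more than 1 probe set, F10 agreed and Masp1 did not. All 3 probe sets of F10 rose, by 0.15, 0.28 and 0.25, with p adjusted over all probe sets of 0.0155, 0.0186 and 0.0187. The Masp1 probe set used above rose by 0.27 (adjusted p = 0.00191), whereas a second one averaged 297 ± 26.8 in PB livers and 386 ± 40.2 in control livers and fell by 0.38 (SE 0.07, adjusted p = 0.000444). The others tested had differences of -0.23 and -0.087 (adjusted p = 0.168 and 0.705), so that only the one used was above 0. The direction for Masp1 therefore depends on the probe set, and which transcript each one detects was not tested. The second probe sets of F5, Kng1 and Proz had differences of -0.09, -0.12 and 0.16, with the sign of the first, and were not called. Those of Masp2, Vtn and Cfp had -0.155, -0.13 and -0.057, also with the sign of the first and not called. The probe set used for C2 had a difference of 0.02, and its other ones had -0.19 and -0.14, none called.

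**Figure D3:**
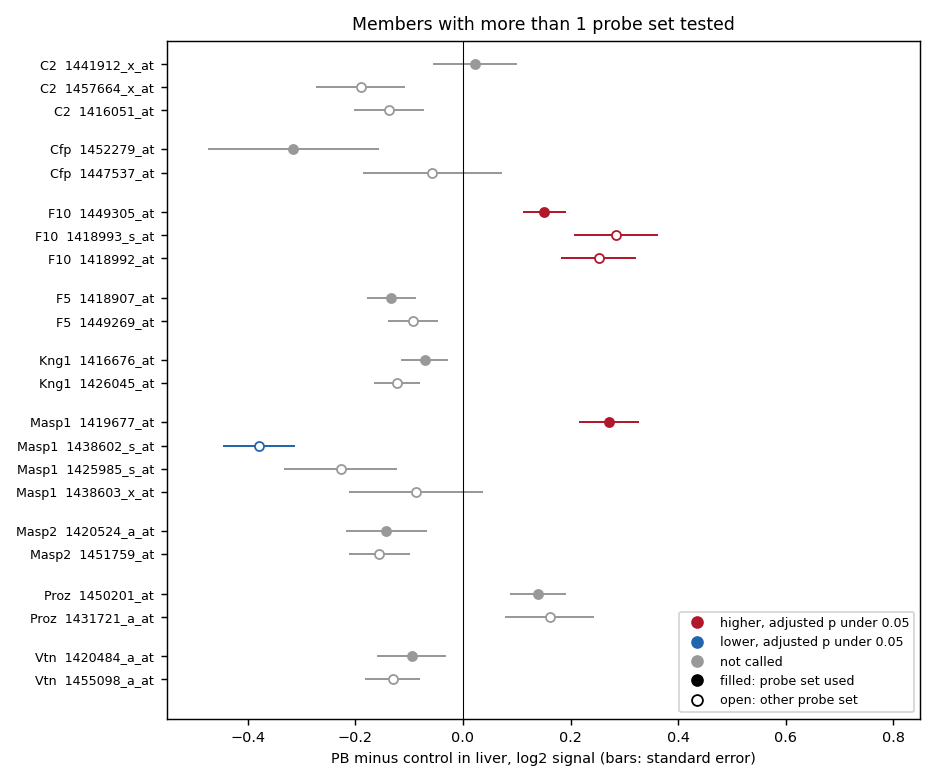
Fitted PB minus control difference in liver on the log2 scale (x axis, bars are standard errors) for each probe set tested (y axis) of the 9 members with more than 1, with p adjusted over all probe sets. The 3 probe sets of F10 lie between 0.15 and 0.28, while those of Masp1 run from -0.38 to 0.27; the F5 probe set used is not called in this fit.

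Further genes of the same pathways were tested in liver, with differences from -0.60 to 0.49. Each was read from 1 probe set. Some have more, such as Lman1 with 5, and the others were not compared. Of 20 further coagulation genes, 2 rose and 4 fell, and of 18 further complement genes, none rose and 4 fell. The background over all genes tested was 6.94% higher and 8.51% lower. F2r, the thrombin receptor PAR1, had signals of 1232 to 2010 in PB livers (median 1649), against 963 to 1473 in control livers (median 1117), and rose by 0.49 (SE 0.08, adjusted p = 0.000212). Lman1, which carries factors V and VIII out of the endoplasmic reticulum, rose by 0.21 (adjusted p = 0.00058). Fcna, the lectin ficolin A, had signals of 179 to 310 in PB livers (median 277), against 338 to 482 in control livers (median 403). These groups did not overlap and passed the ratio of 1.5 with a limma p of at most 0.001, and Fcna fell by 0.60 (SE 0.09, adjusted p = 6.86e-05). St3gal4, a sialyltransferase, fell by 0.45 (adjusted p = 0.00747), and Serpina10, the serpin that works with protein Z, by 0.34 (adjusted p = 0.0201). C1qa, the A chain of C1q, fell by 0.34 (adjusted p = 0.0363). The genes of its other chains, C1qb and C1qc, had differences of -0.04 and -0.345 and were not called (adjusted p = 0.894 and 0.0846). Hgfac, a protease of the factor XII family, fell by 0.30 (adjusted p = 2.98e-05), and Cpn1, which trims anaphylatoxins, by 0.23 (adjusted p = 0.00124). Tfpi2 (adjusted p = 0.035) and Colec10 (adjusted p = 0.0495) also fell, and without the liver of control animal 5 they were not called (adjusted p = 0.0583 and 0.0608). Tfpi, which inhibits the start of the extrinsic branch, was then called higher (0.24, adjusted p = 0.0448). Without that liver 3 of the further coagulation genes rose and 3 fell, and 3 of the further complement genes fell.

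Cell type markers were read in the same livers. None of 7 hepatocyte, 8 Kupffer cell and macrophage, 2 lymphocyte or 3 blood cell and platelet markers tested was called. Differences were below 0 for 6 of the 7 hepatocyte markers (median -0.075). They were below 0 for 7 of the 8 Kupffer cell and macrophage markers (median -0.185), against a median of -0.016 over all genes tested. Of the lymphocyte markers 1 was below 0, and of the blood cell and platelet markers 2 were. Of 7 stellate cell and fibroblast markers, 5 fell (Dcn, Lrat, Des, Pdgfrb and Reln), and the summed signal of the list of 8 was 2449 to 3364 in PB livers, against 2985 to 3740 in control livers. Of 6 endothelial markers, Stab2 fell, and the summed signal of the list of 7 was 905 to 1097 in PB livers, against 880 to 1274 in control livers. No gene of these lists was at 0, and these counts of calls were the same without the liver of control animal 5. Their part in the falls of the members was not tested.

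In kidney, 16 of the 38 members reached a mean of 50, the same 16 in PB and control kidneys, and 22 did not. Of the 16, Fga fell with PB, none rose and 15 were not called, at a background of 1.79% of 9882 genes lower and 2.44% higher. Fga signals were 121 to 287 in PB kidneys (median 201), against 213 to 603 in control kidneys (median 323). The ranges overlapped between 213 and 287, and Fga fell by 0.72 (SE 0.17, adjusted p = 0.0175). Fga passed the ratio of 1.5 with a limma p of at most 0.001 (p = 0.000284), as did 0.476% of all genes tested in kidney. With Student's t-test, p was 0.00315 on linear and 0.0014 on log2 signals (n = 10 each), so that no member passed. The kidneys with liver transcripts touch this result, since 4 of the 5 are controls. Among the 9 PB kidneys without them Fga was at 121 to 287, against 213 to 477 in 6 control kidneys. The difference was then -0.57 (SE 0.17, p = 0.00407, adjusted p = 0.134), so that the call was lost.

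In those 5 kidneys, 7 members were above all 15 other kidneys. Fgb was at 34.4 to 56.4 there, against 0.5 to 3.9 in the others, and Ahsg was at 29.4 to 50.7, against 0.7 to 8.0. F2, Fgg, C9, Vtn and Hpx made up the rest, with Fgg at 90.7 to 143, against 38.9 to 80.4, and Hpx at 48.9 to 103, against 3.3 to 32.3. Where these transcripts came from was not tested.

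**Figure D4:**
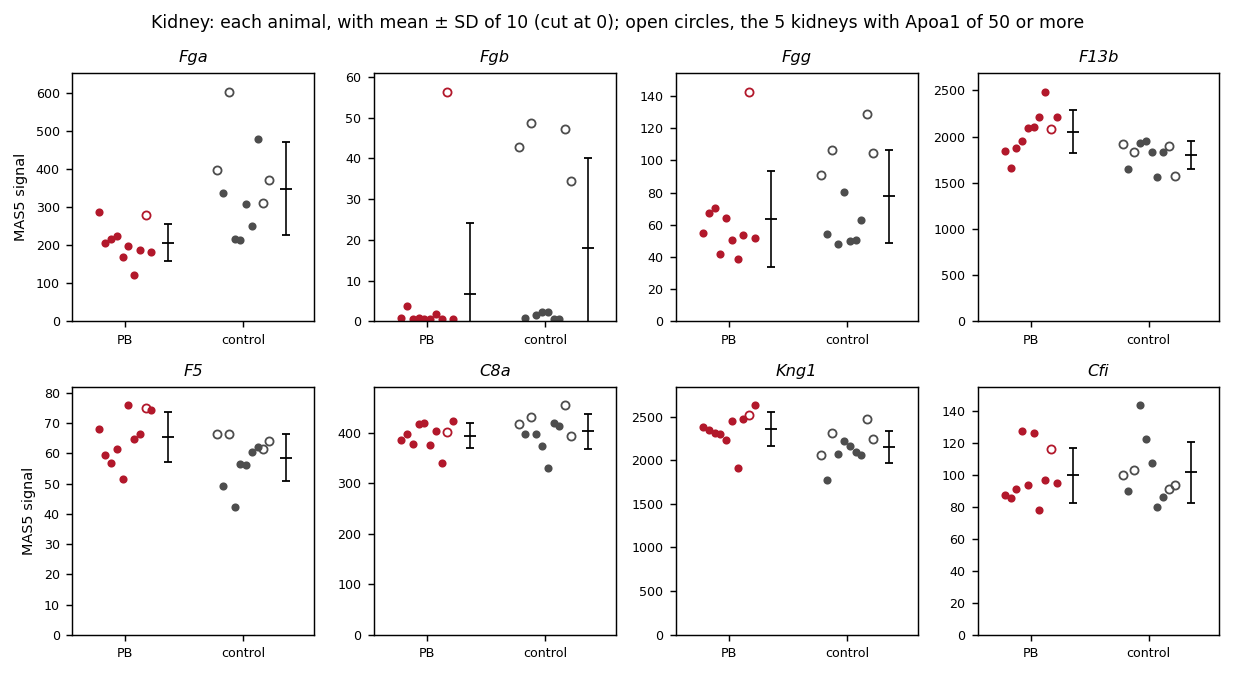
MAS5 signal (y axis, linear, from 0) of 8 members in kidney, with 1 point per animal for PB and control kidneys and the mean ± SD beside each group (n = 10 each, bars cut at 0). Open circles are the 5 kidneys with Apoa1 of 50 or more, which hold the Fgb signals of 34.4 to 56.4; Fga is lower in PB kidneys, at a median of 201 against 323.

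None of the other 15 members measured in kidney was called. F13b averaged 2052 ± 233 in PB kidneys and 1798 ± 150 in control kidneys (log2 difference 0.19, adjusted p = 0.0842), with signals of 1657 to 2486 in PB kidneys (median 2088) and 1559 to 1949 in control kidneys (median 1833). Kng1 signals were 1915 to 2634 in PB kidneys (median 2362) and 1778 to 2477 in control kidneys (median 2126), a difference of 0.13 (adjusted p = 0.173). Both groups of each gene overlapped. Serpinf2 signals were 2065 to 2677 in PB kidneys (median 2255) and 2135 to 2941 in control kidneys (median 2700), and Proc signals were 1319 to 1680 in PB kidneys (median 1503) and 1404 to 2074 in control kidneys (median 1746). Their differences, -0.17 and -0.16, were not called (adjusted p = 0.118 and 0.127). Without control kidney 5 both were called lower, and without PB kidney 12 F13b was called higher. Cfb signals were 806 to 1221 in PB kidneys (median 1074) and 994 to 1195 in control kidneys (median 1063), so that the control range lay inside the PB range.

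For the complement genes C8a, C8g and C2 the kidney groups were close. C8a signals were 340 to 422 in PB kidneys (median 399) and 329 to 455 in control kidneys (median 406), with a difference of -0.03 (adjusted p = 0.813). C8g signals were 206 to 339 in PB kidneys (median 293) and 227 to 342 in control kidneys (median 274). C2 signals were 181 to 331 in PB kidneys (median 228) and 143 to 344 in control kidneys (median 221). The groups of these genes overlapped over nearly their whole ranges. Pros1 signals were 92.7 to 114 in PB kidneys (median 102) and 75.8 to 124 in control kidneys (median 103). The remaining members were nearer to the limit of 50. Cfi signals were 78.0 to 128 in PB kidneys (median 94.5) and 79.9 to 144 in control kidneys (median 97.1). Proz signals were 79.0 to 108 in PB kidneys (median 94.2) and 70.6 to 103 in control kidneys (median 83.8). F5 signals were 51.6 to 76.0 in PB kidneys (median 65.7) and 42.4 to 66.5 in control kidneys (median 61.0), a difference of 0.16 (adjusted p = 0.359). These groups overlapped as well. Fgg signals were 38.9 to 143 in PB kidneys (median 54.3) and 48.2 to 129 in control kidneys (median 71.7), and its highest animal in each group was a kidney with liver transcripts. Serpinc1 signals were 29.5 to 99.2 in PB kidneys (median 47.7) and 32.9 to 96.8 in control kidneys (median 49.7), and Mbl1 signals were 39.1 to 70.7 in PB kidneys (median 49.3) and 29.2 to 67.3 in control kidneys (median 53.8).

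Among 22 further coagulation genes tested in kidney, 2 fell, at a background of 1.79% lower over all genes tested. Apoh, which encodes the phospholipid-binding beta-2-glycoprotein I, averaged 236 in PB kidneys and 323 in control kidneys and fell by 0.46 (SE 0.10, adjusted p = 0.00985). Without the 5 kidneys with liver transcripts its difference was -0.40 and not called (adjusted p = 0.143). Apoh has 2 probe sets, and the other one was not compared. Tfpi2, a Kunitz-type protease inhibitor, averaged 365 in PB kidneys and 482 in control kidneys and fell by 0.41 (SE 0.06, adjusted p = 0.000266), and without those kidneys by 0.43 (adjusted p = 0.0144). None of 12 further complement genes was called in kidney by limma, with 1 at an unadjusted p under 0.05, and none of the 11 tested without those kidneys.

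The PB effect itself was compared between the organs for the 16 members measured in both, as an interaction over all 40 arrays. F5 and C8a were called, both with a lower effect in liver than in kidney, at a background of 6.16% of 8783 genes called in that direction. For F5 the effect was -0.13 in liver and 0.16 in kidney, a difference of -0.30 (SE 0.10, adjusted p = 0.0384). The second F5 probe set had -0.09 in liver and -0.14 in kidney (limma p adjusted over all probe sets, 0.207 and 0.612). The sign of the F5 effect in kidney therefore depends on the probe set. F5 means in kidney were near 50, and with a filter at 100 F5 was not tested. For C8a the effect was -0.29 in liver and -0.03 in kidney, a difference of -0.26 (SE 0.08, adjusted p = 0.0399). Kng1, at -0.21 (adjusted p = 0.0516), and Fga, at 0.52 (adjusted p = 0.0692), were not called. With the animal as a block, since both organs come from the same mice, Kng1 was also called (adjusted p = 0.0403). Without the arrays that held transcripts of the other organ, F5 and C8a kept the call (-0.39 and -0.33), and Kng1 was called too. With quantile normalization the C8a difference was not called (adjusted p = 0.0537). For the other members called in liver the signal in kidney was under 50 or the difference between organs was not called, so that no organ-specific effect was shown for them.

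By level, these were genes of the liver. All 16 members measured in both organs were higher in PB livers than in PB kidneys and higher in control livers than in control kidneys, at a background of 35.3% and 36.2% of 8416 genes. Choosing each probe set by its liver signal favours liver in this comparison. Without the arrays that held transcripts of the other organ, 15 members could be tested, and all 15 were called in both. The narrowest gaps were those of F13b, Serpinf2 and Proc. F13b means were 2.04 times higher in PB livers than in PB kidneys and 2.13 times higher in control livers than in control kidneys, Serpinf2 means 2.35 and 2.21 times, and Proc means 3.18 and 3.17 times. Pros1, Cfb, Kng1 and C2 stood next, with ratios of 3.27 to 6.68. At the other end, Fgg means were 251 times higher in PB livers than in PB kidneys and 235 times higher in control livers than in control kidneys, and 291 and 320 times without the arrays that held transcripts of the other organ. Serpinc1 reached 50 in 4 of 10 PB kidneys and 5 of 10 control kidneys, and without those arrays its kidney means were 47.6 and 40.3, under the limit. Set against 50, Serpinc1 was then at least 316-fold higher in PB livers than in PB kidneys and at least 333-fold higher in control livers than in control kidneys. Of the chains of C8, C8a and C8g were at 50 or more in kidney, and with PB their liver means were 22.7 and 28.8 times higher than their kidney means, whereas C8b was at 0.9 to 20.1 in PB kidneys and 0.7 to 4.4 in control kidneys. Of the fibrinogen genes, Fga and Fgg had kidney means above 50 and Fgb had means below it. Without the arrays that held transcripts of the other organ, Fgg means were 54.7 in PB kidneys and 57.7 in control kidneys, near that limit.

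For the 22 members under 50 in kidney, the liver mean was set against the limit of 50. It gave bounds of at least 1.76-fold to at least 363-fold higher in PB livers than in PB kidneys, and of at least 2.14-fold to at least 442-fold higher in control livers than in control kidneys. Fgb had the highest of these bounds and Cfp the lowest. Cfp, the gene of a protein made mainly by white blood cells, averaged 88.2 in PB livers and 107 in control livers. The bounds hold for the probe sets used. The second Cfp probe set averaged 68.7 in PB livers against 61.2 in PB kidneys, and 71.6 in control livers against 59.8 in control kidneys. A second Masp1 probe set averaged 297 in PB livers against 108 in PB kidneys, and 386 in control livers against 114 in control kidneys. Both were thus above 50 in kidney.

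**Figure D5:**
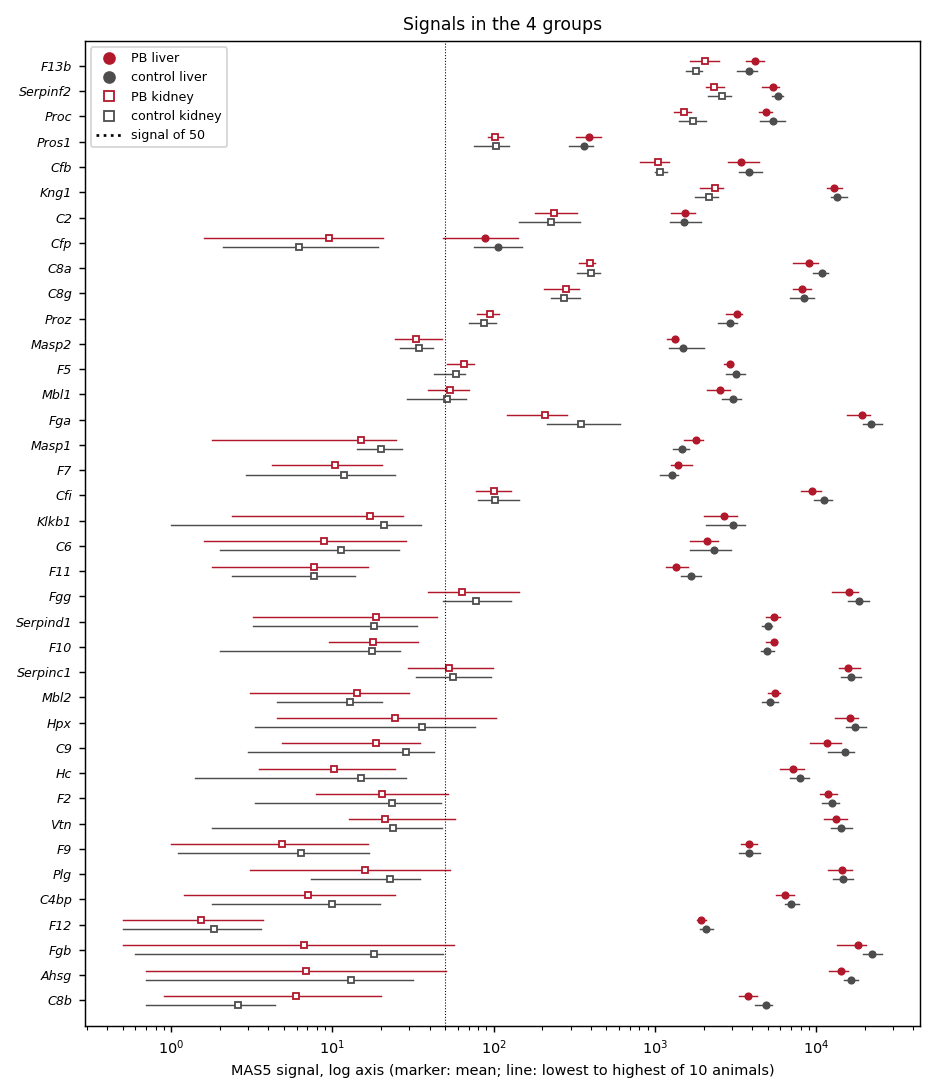
MAS5 signal (x axis, log scale) of the 38 members (y axis) in PB liver, control liver, PB kidney and control kidney, with markers for the mean and lines from the lowest to the highest of 10 animals (cut at 0.5); the dotted line marks a signal of 50. In kidney the means of 16 members reach that line, and among these F13b, Serpinf2 and Proc have the narrowest gap between the organs.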

How the data were processed

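Liver and kidney RNA of 20 mice was hybridised to 40 Affymetrix Mouse430_2 arrays. The deposited intensity values are linear MAS5 signals, for which the authors set the trimmed mean of every array to a target of 150, with 45037 probe sets. GCOS and MAS5 are named in the notes of the submitters, and no version is given in the sources used here. Array medians were 30.0 to 37.2. The number of animals limits the precision.

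The platform annotation named the probe sets, with symbols updated through a RefSeq table (GRCm38.p6). A single symbol was held by 34945 probe sets, while 932 had more and 9160 had no symbol, and 34741 were found in RefSeq. The highest mean liver signal chose 1 probe set per gene. Genes with a mean of at least 50 in either group were kept (in a group of each organ for the interaction, and in all 4 groups for liver against kidney). Signals under 1 were set to 1, and log2 values were tested with limma (lmFit, eBayes with a trend), two-sided, with Benjamini-Hochberg adjustment over all genes tested. A bound against a mean under 50 divides by 50. Values are given for all members called in liver and all members at 50 or more in kidney. Of the further pathway genes called, up to 8 per organ, largest change first, were to be named. In liver, Lman1 and Colec10 lie outside that rule and were chosen after their values were seen. The members and lists were chosen with earlier results of these data known.

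The donor number in the labels ties each liver to the kidney of the same animal. Over 8416 genes, the deviations of both organs from their group means had a median correlation of 0.09 within an animal (lowest -0.09, highest 0.24) and of -0.01 between animals, and for 10 of 20 livers the best match was the kidney of that animal. The fits were tested on simulated data with planted changes of 1.5-, 2- and 4-fold. In liver 77.6% of the 1.5-fold changes were recovered. The member changes in liver were all smaller than 1.5-fold, so recovery at their size was not tested. Alternatives covered the filter, floor, offset, scaling, test, probe set, array number, replicate block and left-out arrays. Tools were R 4.3.3 (limma 3.58.1) and Python 3.11.15 (pandas 2.3.3, NumPy 2.4.6, SciPy 1.17.1, matplotlib 3.10.9).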

Additional observations from a re-analysis of the deposited data

Results flagged for a closer look

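The PB effect differed between the organs by an interaction test for F5 (-0.30 on the log2 scale, liver minus kidney) and C8a (-0.26). These are 2 of the 16 members tested, at a background of 6.16% of 8783 genes called in that direction. With quantile normalization the C8a difference was not called. For F5 the sign of the effect in kidney differed between its probe sets. Single animals stood apart from the other 9 of their group in 4 of 58 groups checked, where chance gives about 1 in 20. In the PB liver of animal 20, Ahsg was at 11983, against 13813 for the next lowest liver. In the PB kidney of animal 19, Fgg was at 143 and Serpinc1 at 99.2, against 70.2 and 63.5 for the next highest kidneys, and this kidney is 1 of the 5 with Apoa1 of 50 or more. In the control kidney of animal 4, Cfb was at 1195, against 1095 for the next highest.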

How the results depend on the processing

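Over all alternatives, 430 values for single members kept their direction and their side of the threshold, 55 kept the direction but lost the call, and none reversed. Many of these fits left out only 1 array. In the liver fits each member was read from the same probe set, so a change of probe set could not show there as a reversal. Between probe sets the sign did change for Masp1 in liver (0.27 and -0.38) and for F5 in kidney (0.16 and -0.14). In liver, the count of members called lower was 18 with quantile normalization and 2 with all 40 arrays in 1 fit, and 8 to 13 when 1 liver was left out. The count called higher was 1 with arrays centred on the median, 0 with all 40 arrays in 1 fit, and 2 to 4 when 1 liver was left out. C8a and Cfi were kept under all 13 alternatives other than left-out single livers. In kidney, the count called lower was 0 with Student's t-test on linear signals and 0 without the kidneys with liver transcripts (chosen after seeing the data), and 1 to 3 when 1 kidney was left out. The count past the cut-offs of the study's methods in kidney, 1 with limma, was 0 with Student's t-test on linear or log2 signals and 0 without those kidneys (chosen after seeing the data). The count called higher in kidney was 1 with the array number as covariate, and 0 to 1 when 1 kidney was left out. The interaction gave 4 members with Student's t-test on linear signals, and with the animal as a replicate block it gave 3, adding Kng1, while F5 had an adjusted p of 0.0283. The replicate block left liver against kidney at 16 members; with a filter at 100, 10 members were tested and called in each treatment. With quantile normalization 12 of the 13 liver calls were kept, all but Serpind1. The causes of these shifts were not tested, apart from the spread that kidney arrays add in the 40-array fit. Array signals near background limit what can be said in kidney, where 22 members had a mean under 50.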
